A study of Mus musculus with 4 samples.

Results

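A set of genes of fibroblast growth factor (FGF) signalling, 10 of the 22690 genes in the table, were followed across 4 RNA-seq libraries of mouse retinal cells. They were picked by gene symbol for their roles: the ligand Fgf15, the receptors Fgfr1 and Fgfr2, the feedback inhibitors Spry1, Spry2, Spry4 and Dusp6, and the transcription factors Etv1, Etv4 and Etv5. Freshly dissected retinas of C57BL/6 mice at postnatal day 2 were the source, and their cells were kept briefly in serum-free medium and flow-sorted as 4N, meaning that the genome had been copied and division had not yet taken place. The 2 libraries of GFP-negative cells carry the label wild type, and the 2 libraries of GFP-positive cells carry the label Casz1 cKO, a conditional knockout of the zinc finger gene Casz1. GFP status and genotype differ together, so their parts in any difference cannot be told apart. What drives the knockout, and how many animals a library holds, the sources used here do not state. The series text speaks of 2 independent experiments and does not tie libraries to them, so p-values measure the spread between these libraries, which may be technical.

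FGFs are secreted ligands that activate receptor tyrosine kinases, with heparan sulfate as a cofactor, and signal through RAS to the kinase ERK. Active ERK raises transcription of the Etv factors and of inhibitors that damp the same pathway, the Sprouty proteins acting upstream of ERK and DUSP6 removing phosphate from ERK itself. Levels of these genes are therefore widely read as a record of FGF-ERK signalling, although other receptor tyrosine kinases drive them too. Fgf15 is the mouse counterpart of human FGF19, made in the gut as a hormone and in the developing retina by progenitor cells.

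The libraries are named wild-type A and B and cKO A and B, after a tag that each column name shares with 1 column of the other group. Casz1 itself had normalized read counts of 13162 and 11995 in wild type A and B and 8687 and 10772 in cKO A and B. The log2 difference was −0.38 (SE 0.19; limma, adjusted p = 0.771), and reads over the whole gene need not measure the part that was deleted. Depth in gene-assigned reads was lowest in cKO A, at 22326119, and lay between 75832360 and 89473701 in the other libraries. Across genes cKO A correlated with the other libraries at r = 0.902 to 0.918, below the 0.988 to 0.993 among the other 3. Progenitor markers were abundant in every library: 14 markers summed to 517688 and 515555 normalized counts in wild type and 707992 and 572110 in cKO. Ccnd1 was the largest, at 235937 and 223698 in wild type A and B and 388895 and 253407 in cKO A and B. Within A 12 of the 14 were higher in cKO, and Pax6 was lower, at 48629 in wild type A and 35093 in cKO A. Sums of 12 microglial markers were 21962 and 20743 in wild type and 1375 and 9377 in cKO, with Aif1 at 0 in cKO A. In bulk libraries fewer cells of a type and less RNA per cell cannot be told apart.

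Small differences, mostly carried by cKO library A, were what the 10 members showed. All 10 members passed the filter of a mean normalized count of at least 10, and 0 of 10 passed the limma test, a moderated two-sided test on log2(normalized count + 1) with Benjamini-Hochberg adjustment over all 14480 genes tested. That test called 0% of all genes, 0 of 14480. At an unadjusted p under 0.05 limma had 274 genes, 1.89% of those tested, and 0 members. On the recovered reads edgeR called 0 genes and DESeq2 called 1 (0.00691%), and neither called a member. The log2 fold change, the difference of group means on that log2 scale, was above 0 for 7 members and below 0 for 3, with a median of 0.16 against −0.03 over all genes tested. Members ranged from −0.33 for Spry1 to 0.44 for Fgf15, while the middle 50% of all genes spanned −0.38 to 0.20. Without cKO A the median of the members was 0.00020, and without cKO B it was 0.30.

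**Figure D1:**
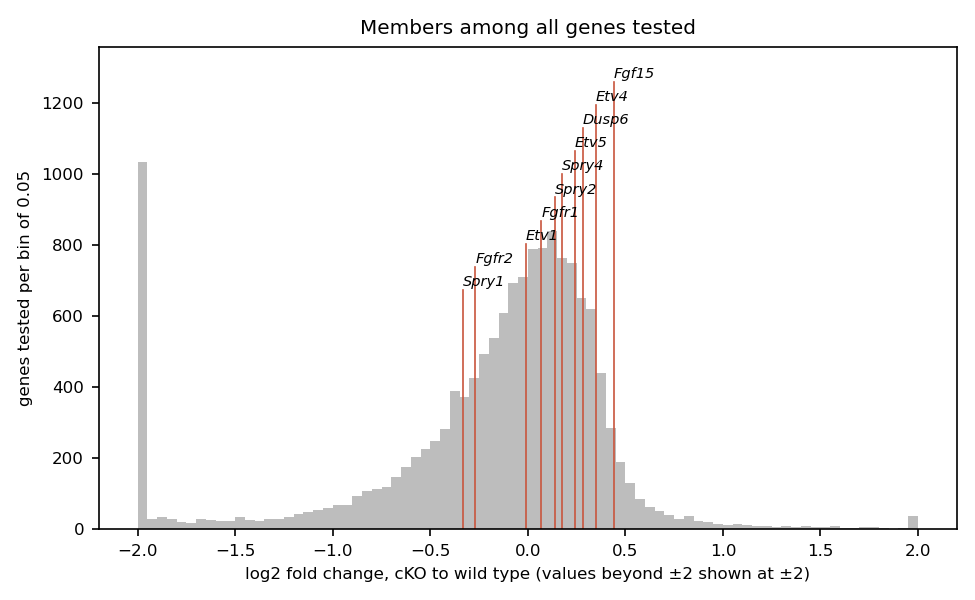
Histogram of the log2 fold change (cKO to wild type) of the 14480 genes tested, with red lines at the 10 members. The members sit within the bulk of the distribution, Fgf15 farthest right at 0.44 and Spry1 farthest left at −0.33.

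Within the A libraries 7 of the 10 members were higher in cKO, with a median log2 ratio of 0.28, and within the B libraries 6 were, with a median of 0.04. Over all genes tested the medians were −0.05 and −0.0030. The median size of these ratios was 0.34 in members and 0.44 in all genes within A, and 0.11 in both within B. Genes of like abundance were not compared, and cKO A had the fewest reads. The 2 wild-type libraries differed from each other by a median size of 0.17 among members. In 8 of 10 members the B ratio was smaller in size than that member's own wild-type difference, the exceptions being Spry1 and Spry2. In 6 of 10 the A ratio was larger in size than the member's own wild-type difference, namely Fgf15, Spry1, Spry2, Dusp6, Etv4 and Etv5. The groups did not overlap with cKO higher for 3 members, Dusp6, Etv4 and Spry2, against 17.2% of all genes tested. They did not overlap with cKO lower for 1 member, Spry1, against 22.3% of all genes. The other 6 members overlapped between the groups.

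**Figure D2:**
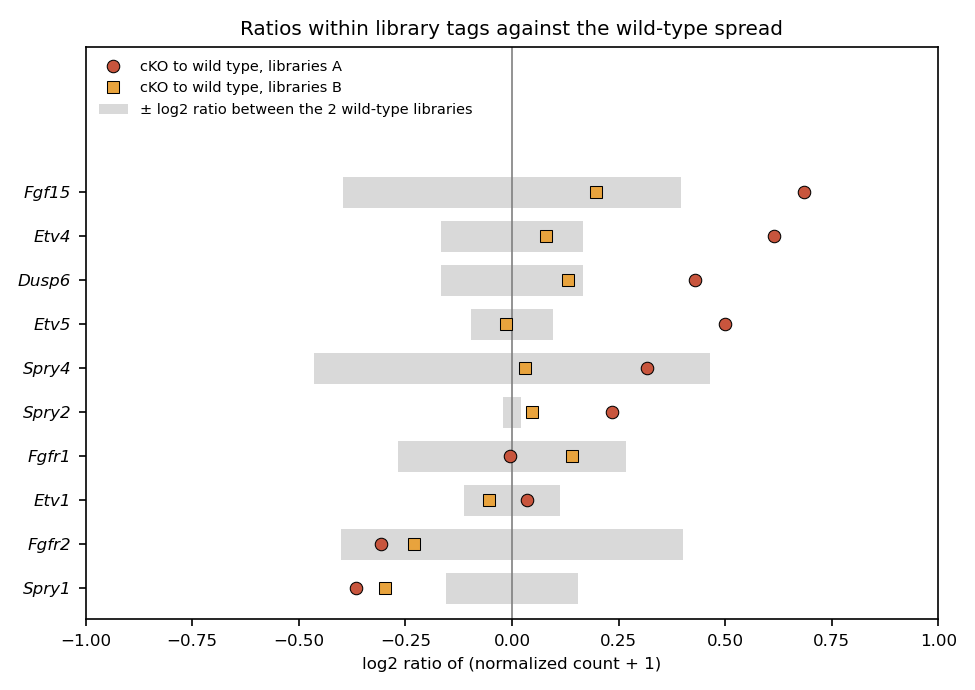
The log2 ratio of cKO to wild type for each member within the A libraries (circles) and within the B libraries (squares), over a grey bar whose half-width is the log2 ratio between the 2 wild-type libraries. Spry1 and Spry2 have both symbols outside the grey bar, and Fgf15, Etv4, Dusp6 and Etv5 have the circle alone outside it.

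Fgf15 was the most abundant member per length in wild type and had the highest log2 fold change of the 10. The gene (ENSMUSG00000031073) lies on chromosome 7, 144896531 to 144900953 of GRCm38, plus strand. Its normalized counts were 16156 and 12277 in wild type A and B and 25985 and 14068 in cKO A and B. cKO A was the highest library, and cKO B lay between the wild-type libraries, so the groups overlapped. Both A libraries lay above both B libraries. Mean counts were 14217 ± 2743 (SD, n = 2) for the wild-type pair and 20027 ± 8426 (SD, n = 2) for the cKO pair. The log2 fold change was 0.44 (SE 0.33; limma, adjusted p = 0.771), with a 95% interval of −0.39 to 1.27, and 6.15% of genes tested had a higher one. Within tags the ratio was 0.69 in A and 0.20 in B, and the wild-type libraries alone differed by 0.40. Without cKO A the log2 fold change was −0.0016. Without cKO B it was 0.88 (limma, adjusted p = 0.000768), on the assumption that a single cKO library varies as much as the 2 wild-type ones do. That fit called 39.8% of all genes tested (5768 of 14480).

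Most progenitor markers, a list that excludes Fgf15, were also higher in cKO. Within A 12 of 14 were above 0, at a median of 0.32, and within B 12 of 14, at 0.13. Their sums were close in wild type A and B, at 517688 and 515555, where Fgf15 was higher in A. As a percent of the progenitor marker sum, Fgf15 was 3.12 and 2.38 in wild type A and B and 3.67 and 2.46 in cKO A and B. On this scale the groups overlapped for Fgf15, Fgfr2, Spry4, Dusp6, Etv4 and Etv5. For Fgfr1, Spry1, Spry2 and Etv1 cKO was lower without overlap, and the share of all genes was not computed. The part of progenitor content in the Fgf15 level was not tested. An annotated antisense gene, Gm26793, covers 24.9% of the Fgf15 exon length, and Gm26793 has no row of its own in the table. The library kit keeps strand, but the sources used here do not state a strand setting for counting, so reads of the 2 genes cannot be told apart.

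The genes whose pattern over the 4 libraries was most like that of Fgf15 were Prx, Zbtb22 and Tmem48. Their root-mean-square distance to Fgf15 on the centred log2 scale was 0.018, 0.018 and 0.020, among 13022 genes with a mean of at least 50. Prx encodes periaxin of myelinating Schwann cells, and Tmem48 encodes a membrane protein of the nuclear pore. Zbtb22, a zinc finger gene, had 4732 and 3682 normalized counts in wild type and 7566 and 4087 in cKO. The pattern was a common one, with 271 genes (2.08%) within a distance of 0.1.

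**Figure D3:**
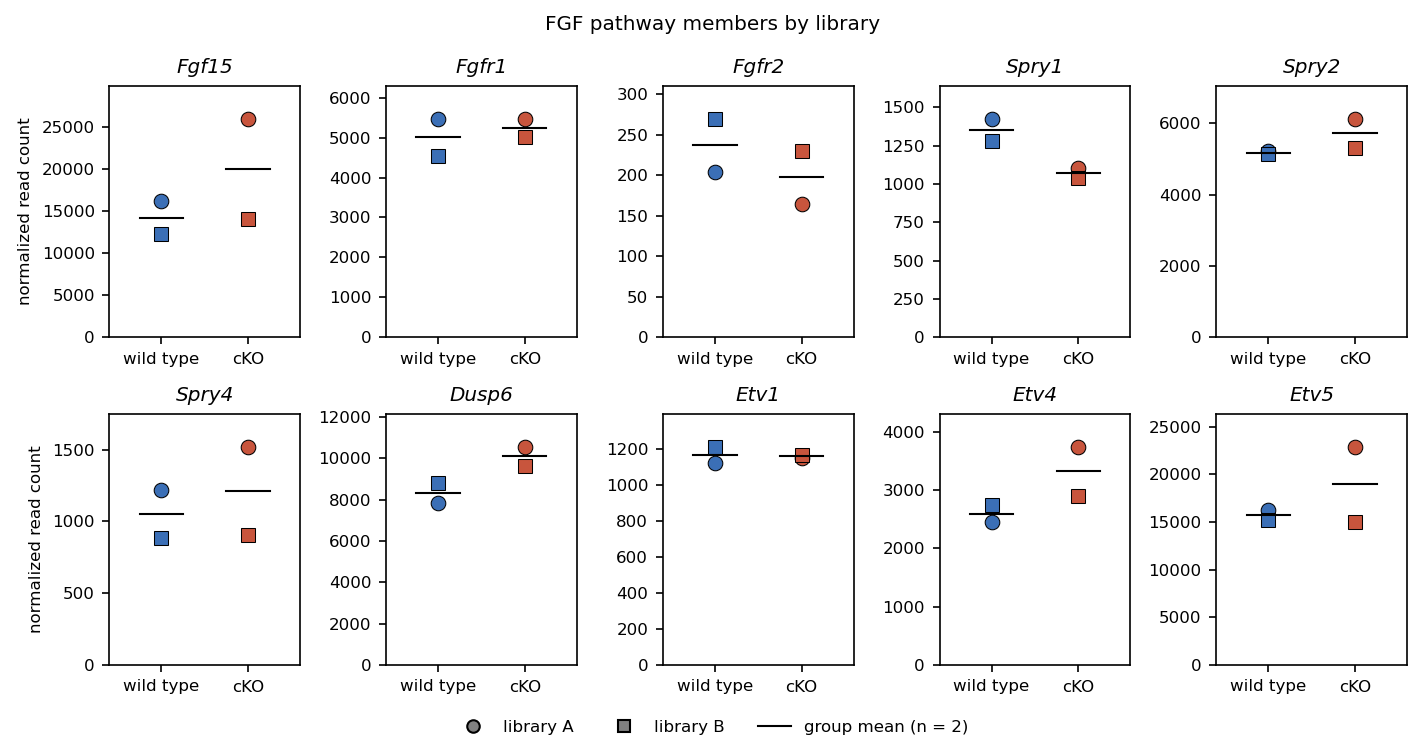
Normalized read counts of each member in the 4 libraries (blue, wild type; red, cKO; circles, libraries A; squares, libraries B), with a line at each group mean (n = 2) and each axis from 0. The cKO A circle stands well above the other 3 libraries for Fgf15, Etv4, Etv5 and Spry4, while both cKO libraries lie below both wild-type libraries for Spry1.

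The receptors differed in level from each other, and within either tag cKO and wild type differed by less than the 2 wild-type libraries did. Fgfr1, a receptor tyrosine kinase of broad expression in neural progenitors (ENSMUSG00000031565, chromosome 8, 25513654 to 25575718 of GRCm38, plus strand), had 5474 and 4547 normalized counts in wild type A and B and 5460 and 5013 in cKO A and B. Both cKO libraries lay between the wild-type ones. Its log2 fold change was 0.07 with a 95% interval of −0.40 to 0.53 (limma, adjusted p = 0.896).

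Fgfr2, the related receptor (ENSMUSG00000030849, chromosome 7, minus strand), had 204 and 270 normalized counts in wild type A and B and 165 and 230 in cKO A and B. The A library was the lower one in both groups, and the groups overlapped. The log2 fold change was −0.27 with a 95% interval of −1.22 to 0.68 (limma, adjusted p = 0.809). The cKO A value rests on 59 reads, which is a counting error of 13.0%, against at most 6.10% for any other value of a member. GENCODE M21 extends this gene over 2960900 bases, from 130162451 to 133123350, and 3.04% of its exon length is shared with Ctbp2 on the same strand.

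Dusp6 and the Sprouty genes did not share a direction. Dusp6, the cytoplasmic phosphatase of ERK (ENSMUSG00000019960, chromosome 10, 99263231 to 99267489 of GRCm38, plus strand), had 7841 and 8798 normalized counts in wild type A and B and 10567 and 9637 in cKO A and B. Both cKO libraries were above both wild-type ones. The means were 8320 ± 677 (SD, n = 2) and 10102 ± 658 (SD, n = 2), 21.4% higher in cKO. This is a log2 fold change of 0.28 (SE 0.18; limma, adjusted p = 0.771), with 0.43 within A and 0.13 within B. It was 0.21 without cKO A and 0.35 without cKO B.

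Spry1, an inhibitor of receptor signalling upstream of ERK (ENSMUSG00000037211, chromosome 3, 37639947 to 37644598 of GRCm38, plus strand), went the other way. Its normalized counts were 1426 and 1280 in wild type A and B and 1106 and 1041 in cKO A and B, both cKO libraries being below both wild-type ones. The means were 1353 ± 103 (SD, n = 2) and 1074 ± 46.1 (SD, n = 2), and the cKO mean was 79.4% of the wild-type mean. On the log2 scale the difference was −0.33 (SE 0.20; limma, adjusted p = 0.771), and 72.3% of genes tested had a higher one. Ratios were alike in size within the tags, −0.37 in A and −0.30 in B. A gene model on the opposite strand, Gm42922, covers 24.4% of its exon length and has no row of its own in the table. Rod markers, 12 genes led by Crx and Nr2e3, were lower in the same libraries, with sums of 106045 and 95820 in wild type and 53713 and 63939 in cKO. The part of rod or microglial content in the Spry1 level was not tested.

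Spry2, a second Sprouty inhibitor (ENSMUSG00000022114, chromosome 14, 105891947 to 105896819 of GRCm38, minus strand), had 5215 and 5136 normalized counts in wild type A and B and 6133 and 5306 in cKO A and B. The cKO libraries were the higher ones, cKO B by little. The wild-type pair was close, with a mean of 5175 ± 55.9 (SD, n = 2), against 5720 ± 585 (SD, n = 2) in cKO. The log2 fold change was 0.14 with a 95% interval of −0.30 to 0.58 (limma, adjusted p = 0.792).

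The 250 bases before the annotated start are shown for the members whose groups did not overlap and that had an entry in the RefSeq table (GRCm38.p6). That table matched 6 of the 10 members: Fgfr2, Spry1, Spry2, Dusp6, Etv1 and Etv5. No member passed the limma test, so the directions of these genes are not established, and no link to the sequences was tested. Each is given 5′ to 3′ on the strand of the gene, with matches in capitals to CCGGAA or AGGAAG on either strand, letters of sites that ETS factors such as the Etv proteins are known to bind.
Dusp6 (chr10:99262981-99263230, plus strand): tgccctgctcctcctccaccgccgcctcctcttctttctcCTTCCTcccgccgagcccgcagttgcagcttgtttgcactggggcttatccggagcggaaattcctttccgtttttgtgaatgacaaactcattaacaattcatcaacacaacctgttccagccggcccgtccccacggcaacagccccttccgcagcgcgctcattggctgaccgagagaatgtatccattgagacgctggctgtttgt
Spry2 (chr14:105896820-105897069, minus strand): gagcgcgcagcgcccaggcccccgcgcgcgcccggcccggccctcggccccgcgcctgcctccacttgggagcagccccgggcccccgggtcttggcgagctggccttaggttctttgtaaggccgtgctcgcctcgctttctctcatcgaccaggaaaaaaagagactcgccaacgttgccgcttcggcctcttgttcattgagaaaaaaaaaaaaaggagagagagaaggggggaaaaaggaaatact
Spry1 (chr3:37639697-37639946, plus strand): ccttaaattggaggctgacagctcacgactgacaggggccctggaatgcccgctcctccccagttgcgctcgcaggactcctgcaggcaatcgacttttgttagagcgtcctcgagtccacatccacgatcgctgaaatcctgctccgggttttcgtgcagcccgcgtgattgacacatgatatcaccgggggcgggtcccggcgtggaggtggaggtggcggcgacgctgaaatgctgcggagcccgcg
Dusp6 held 1 match, to AGGAAG read on the opposite strand and starting at base 41 of the window. The Spry1 and Spry2 windows held no match to either motif, which says only that these letters are not in those bases. Over all 8 windows of the 6 members, 3 held AGGAAG (1 each of Fgfr2, Dusp6 and Etv1) and 0 held CCGGAA. In all 32851 windows of this length in the table, AGGAAG was present in 29.5% and CCGGAA in 12.03%. GC content was 56.4% for the Dusp6 window and 62.4% for each of the Spry1 and Spry2 windows.

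Levels of Spry4, the remaining Sprouty member, followed the library tag more than the group. Spry4 (ENSMUSG00000024427, chromosome 18, 38586247 to 38601415 of GRCm38, minus strand) had 1222 and 885 normalized counts in wild type A and B and 1523 and 903 in cKO A and B. The A library was the higher one in each group, and the groups overlapped. Both A libraries were above both B libraries, as they also were for Fgf15, Fgfr1 and Etv5. At 0.17 (SE 0.33; limma, adjusted p = 0.851) the log2 fold change was smaller than the 0.46 between the wild-type libraries. Without cKO A it was −0.20.

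The PEA3 subfamily of ETS transcription factors, Etv1, Etv4 and Etv5, are targets of FGF-ERK signalling and carry it to transcription. Etv4 (ENSMUSG00000017724, chromosome 11, 101769742 to 101785371 of GRCm38, minus strand) had 2447 and 2747 normalized counts in wild type A and B and 3747 and 2904 in cKO A and B. Both cKO libraries were above both wild-type ones, cKO A by far. The means were 2597 ± 212 (SD, n = 2) and 3326 ± 596 (SD, n = 2), 28.1% higher in cKO. Its log2 fold change was 0.35 (SE 0.21; limma, adjusted p = 0.771), with 0.61 within A and 0.08 within B. The value was 0.16 without cKO A and 0.53 without cKO B, and the second passed (limma, adjusted p = 0.0303).

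Etv5 (ENSMUSG00000013089, chromosome 16, 22381309 to 22439719 of GRCm38, minus strand) had 16226 and 15171 normalized counts in wild type A and B and 22936 and 15018 in cKO A and B. cKO A was the highest library and cKO B the lowest, so the groups overlapped. Between the groups the log2 fold change was 0.24, with a 95% interval of −0.38 to 0.86 (limma, adjusted p = 0.773). It was −0.06 without cKO A and 0.55 without cKO B, where it passed (limma, adjusted p = 0.0264). Fgf15, Etv4 and Etv5 were the 3 of 10 members called without cKO B, where limma called 39.8% of all genes tested. Without cKO A limma called 0.373% of genes and 0 members.

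Etv1 (ENSMUSG00000004151, chromosome 12, 38779380 to 38870484 of GRCm38, plus strand) had the smallest difference of the 10. Its normalized counts were 1123 and 1215 in wild type A and B and 1151 and 1170 in cKO A and B, with both cKO libraries between the wild-type ones. Its log2 fold change was −0.0095, with a 95% interval of −0.51 to 0.49 (limma, adjusted p = 0.988). The 3 related factors thus differed in their values within A, at 0.04 for Etv1, 0.61 for Etv4 and 0.50 for Etv5, and differences between them were not tested.

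Per kilobase of exon, the members spanned a wide range in wild type, from Fgf15 at the top to Fgfr2 at the bottom. Mean normalized counts per kilobase were 4649 for Fgf15, 3826 for Etv5, 2656 for Dusp6 and 2480 for Spry2. Below them came 837 for Etv4, 507 for Fgfr1, 466 for Spry1, 221 for Spry4, 87.9 for Etv1 and 23.0 for Fgfr2. Fgfr1 and Spry1 were the only neighbours in this order whose wild-type libraries overlapped. Fgf15, Etv5, Dusp6, Spry2 and Etv4 thus lay above both receptors, and Spry4 and Etv1 lay between them. Exon lengths are those of GENCODE M21, which may differ from the annotation used for counting.

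Other genes of the pathway gave 0 calls in limma over all genes, in each of 6 lists. Of 21 further FGF genes, 11 passed the filter and 6 were above 0 in log2 fold change, with a median of 0.17. Fgf9, a secreted FGF of the embryonic eye, had 3839 and 4938 normalized counts in wild type and 3129 and 4908 in cKO. Fgf13 and Fgf11, relatives that stay inside the cell, had log2 fold changes of 0.47 and −0.30. In 4 of the 11 tested FGF genes cKO A held 20 reads or fewer, and their ratios rest on those few reads. Of 7 tested receptors and co-receptors, 3 were above 0, with a median of −0.13. Fgfrl1, a receptor without a kinase domain, had 0.10, Flrt2 had −0.13 and Flrt3, which binds FGF receptors, had 0.37. Fgfr3, another receptor kinase, was at 0 reads in cKO A, where 3 reads would be 8.38, and at 140, 113 and 122 in wild type A, wild type B and cKO B.

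Enzymes that build heparan sulfate had a median of 0.14, with 9 of 12 above 0; Ndst1 had 0.13, Ext2 0.34 and Hs2st1 0.27. Adaptors and kinases between the receptor and ERK had −0.04, with 8 of 20 above 0. Among them Ptpn11, the phosphatase SHP2, had 0.30. Further negative regulators had a median of −0.05, with 6 of 12 above 0. Dusp5, a nuclear ERK phosphatase, had 9604 and 7406 normalized counts in wild type A and B and 18715 and 8282 in cKO A and B, which is a log2 fold change of 0.56 (SE 0.40; limma, adjusted p = 0.771). Its pattern of a high cKO A and a cKO B between the wild-type values is that of Fgf15. Spred1, a Sprouty-related inhibitor, had 0.11 and Rasa1, a RAS GTPase activating protein, −0.19.

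Further ERK-responsive transcription factors had a median of 0.09, with 10 of 14 above 0. Fos and Egr1 are immediate-early genes that cell dissociation and other stimuli also induce. Fos had 106149 and 145793 normalized counts in wild type A and B and 231467 and 176065 in cKO A and B, both cKO libraries being higher. The log2 difference for Fos was 0.70 (SE 0.27; limma, unadjusted p = 0.0467, adjusted p = 0.771). Egr1 had 0.42 and Ier2 0.64, and the groups did not overlap for either, with cKO higher. In this list 5 of 14 genes had cKO higher without overlap, against 17.2% of all genes tested. Another 2, Elk1 and Elk3, had cKO lower without overlap, against 22.3% of all genes tested. The remaining lists did not share this lean. Counts of cKO higher and cKO lower without overlap were 2 and 2 of 11 FGF genes and 0 and 0 of 7 receptors and co-receptors. They were 3 and 1 of 12 heparan sulfate enzymes, 2 and 5 of 20 adaptors and kinases, and 1 and 4 of 12 negative regulators.

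**Figure D4:**
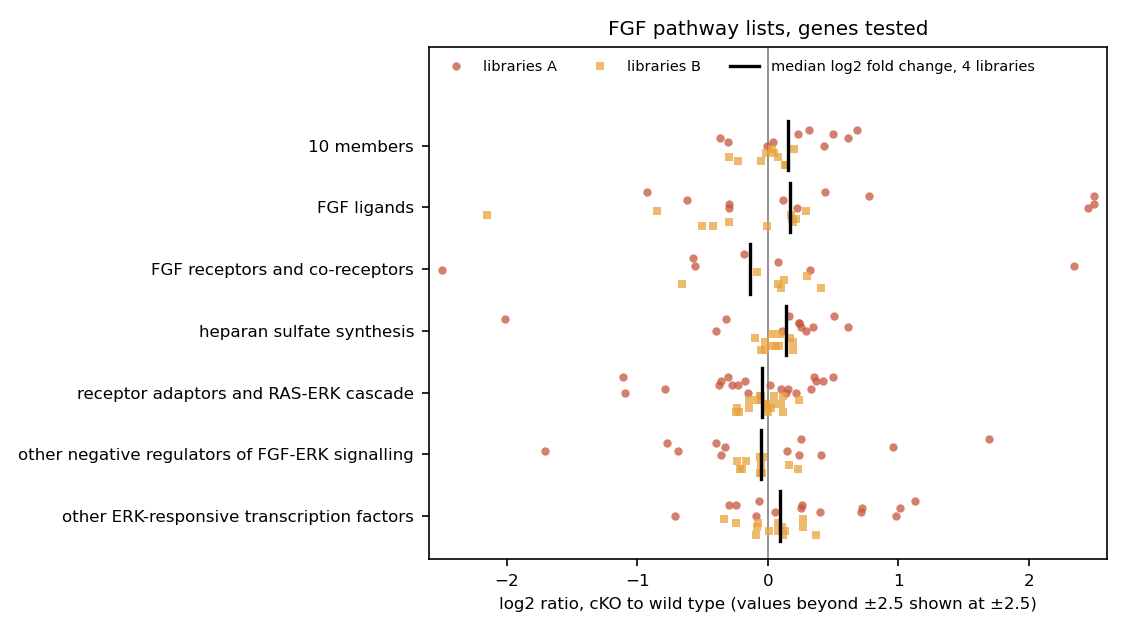
The log2 ratio of cKO to wild type within the A libraries (circles) and the B libraries (squares) for the 10 members and 6 lists of other pathway genes, with a black line at the median log2 fold change over 4 libraries. List medians lie between −0.13 and 0.17, and the circles spread more widely than the squares in every list.

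Markers of other cell types gave the following values beside the members. Within A and B the median log2 ratio of Mueller glia markers was 0.46 and 0.04, with 6 and 5 of 9 above 0, and their sums were 197794 and 173255 in wild type and 287518 and 183703 in cKO. The Mueller sum was thus highest in cKO A, as Fgf15, Etv4 and Etv5 were, though not every marker was. Dkk3 was its largest part, at 95220 and 81962 in wild type A and B and 140616 and 89828 in cKO A and B. Whether these genes mark Mueller glia alone at this age was not tested. Against 6 of 9 higher within A, Clu had a log2 ratio of −1.80, Aqp4 −1.07 and Apoe −0.02. Rod and microglial markers had 4-library medians of −0.89 (11 of 12 lower) and −2.63 (12 of 12 lower), astrocyte markers −0.59, endothelial and mural markers −0.56, amacrine and horizontal −0.15, ganglion 0.07 and pigment epithelium −0.02. Pecam1, Acta2, Cdh5 and Tek of the endothelial and mural list, S100b of the astrocyte list and Tyrp1, Tyr, Rpe65 and Mlana of the pigment epithelium list were at 0 in cKO A. Over all 22690 genes, 9179 were at 0 in cKO A, the library with the fewest reads. In wild type A, wild type B and cKO B this held for 6169, 5793 and 5992 genes. The part of these cell types in the members' values was not tested.

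In the authors' deposited table the ratio of cKO to wild type was 1.41 for Fgf15, 1.28 for Etv4, 1.21 for Dusp6 and 0.794 for Spry1. That table, the authors' deposited table, has 51 genes with an adjusted p under 0.05 (0.292% of those with a p-value) and 0 of the 10 members among them, each member having an adjusted p of 1.00.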

How the data were processed

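RNA-seq of sorted 4N retinal cells gave 4 libraries, 2 per group. The signal the authors deposited is a normalized count, in which each library's read counts have been divided by a size factor of that library. The authors also deposited a fold ratio of group means and, from their own comparison of the groups, a p-value and an adjusted p-value per gene, per the file headers. DESeq, HTSeq, TopHat and FastQC, with mm10, are named in the submitters' processing notes; the sources used here do not state settings or annotation. All values (100%) were whole multiples of 1 read within 0.01 reads, so reads were recovered. Both cKO columns are headed as the same replicate and were assigned to the group only. A mean of at least 10 was required, and log2(normalized count + 1) was tested with limma 3.58.1 (R 4.3.3) with a mean-dependent prior, adjusted by Benjamini-Hochberg at 0.05. Scripts were tested on simulated data. edgeR 4.0.16 and DESeq2 1.42.0 used recovered reads. Intervals are at 95%. The chi-square of reads between libraries of a group was 74.1 (wild type) and 126 (cKO) per degree of freedom, above sampling noise. Coordinates and exon lengths are from GENCODE M21 on GRCm38 (96.1% of identifiers found). The text names all members, the 3 most abundant tested genes of each pathway list (or those called) and the 3 genes nearest to Fgf15; some genes that this rule takes are not reported here. Fgfr3 was named after its values were seen. Members and lists were chosen with earlier results of these data known. Alternatives were pseudocounts 0.5 and 5, no filter or a mean of 50, median and TMM scaling, no mean-dependent prior, edgeR, DESeq2, a replicate block and leaving out each library.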

Additional observations from a re-analysis of the deposited data

How the results depend on the processing

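Limma called 0 genes under other pseudocounts, filters and scalings and without the mean-dependent prior; edgeR called 0 and DESeq2 called 1. Leaving out 1 library at a time gave 0 to 5768 genes, with 54 without cKO A and 5768 without cKO B, and 0 to 3 members; the cause was not tested. No other alternative run called a member. In fits of 1 library against 2 the lone one is assumed to vary like the pair, and a difference between tags enters as one between groups. Log2 fold changes turned in sign only in such fits. Those of Fgf15 ranged from −0.0016 to 0.88, Etv5 from −0.063 to 0.55 and Spry4 from −0.20 to 0.55, each lowest without cKO A and highest without cKO B, and Spry4 was −0.059 without wild-type B. Fgfr1 ranged from −0.065 without wild-type B to 0.20 without wild-type A. Etv1 ranged from −0.066 without wild-type A to 0.047 without wild-type B, with 0.0019 without cKO A. Dusp6, Etv4, Spry2, Spry1 and Fgfr2 kept their sign in all 14 alternatives. No label says what the tags stand for, and deviations of same-tag libraries from their group means correlated at 0.258 across genes. With the tag as a replicate block limma called 0 genes (1375 at an unadjusted p under 0.05), Fgf15 had adjusted p = 0.538, and the block changed no call of a member. Among the members the lowest count of reads was 59, for Fgfr2 in cKO A, so its value there is the least precise by counting error.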
